A study of Oryza sativa Japonica Group with 6 samples.

Results

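DAO, TAR2, YUCCA1 and SAUR39 are 4 rice genes that act on the level of the auxin indole-3-acetic acid (IAA), and their transcripts were compared between mature anthers of wild type and of the dao mutant. They were found by gene symbol or synonym among the 17905 genes that the array's annotation pairs with a probe set, a group of short probes read together as 1 signal. The 4 genes had 5 of the 57381 probe sets on the array. DAO (LOC4336150 in the annotation), TAR2 (LOC4325198) and SAUR39 (LOC9271092) had 1 probe set each and YUCCA1 (LOC9269185) had 2, whose names end in _at and in _x_at.

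Wild type and dao were each represented by 3 arrays of total RNA from mature anthers at anthesis, all from a japonica variety grown in the field, and the titles call the 3 biological replicates. A free-text line on each array speaks instead of seedlings 3 weeks old, and on the dao arrays it names Epi-df in place of dao. No source used here describes the lesion in dao. Each sample had its own Affymetrix rice genome array, read in 1 colour, and values are the deposited signal on a linear scale unless called log2.

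IAA is made from tryptophan in a pair of steps. An aminotransferase of the TAA1 and TAR family forms indole-3-pyruvate, and a flavin monooxygenase of the YUCCA family turns this into IAA. DAO, a dioxygenase, oxidises IAA to an inactive form, and in rice it is known for its part in anther dehiscence, pollen fertility and the start of seed growth. Small auxin-up RNA (SAUR) genes respond early to auxin, and SAUR39 is known in rice as a repressor of auxin synthesis and transport.

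On the arrays labelled dao, transcripts of the oxidase DAO, of the aminotransferase TAR2 and of the repressor SAUR39 were higher than in wild type. By the ratio of geometric means the rise was 2.05-fold for DAO (95% interval 1.46 to 2.90), 4.73-fold for TAR2 (2.50 to 8.94) and 3.26-fold for SAUR39 (2.56 to 4.17), with n = 3 arrays in each group. All intervals and p-values of the fit take the 3 arrays of a group as independent. If they are not, the intervals are too narrow and the p-values too small. YUCCA1, of the second step of synthesis, was dim on all 6 arrays and did not pass the test with either probe set. In bulk anther RNA, a change in the number of cells that hold a transcript and a change in its amount per cell cannot be told apart.

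**Figure D1:**
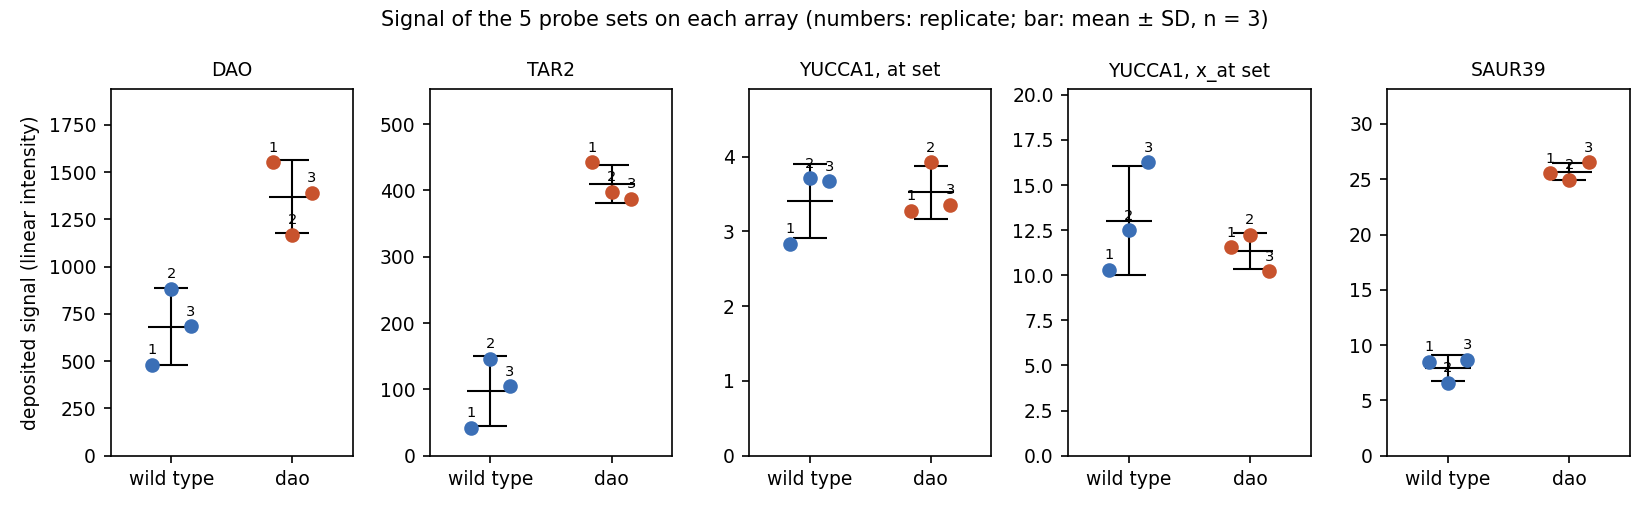
Deposited signal (linear axis from 0, a separate scale for each panel) of each probe set on the 3 wild-type arrays (blue) and the 3 dao arrays (orange), with the replicate number beside each point and the mean ± SD as bars. For DAO, TAR2 and SAUR39 every dao point lies above every wild-type point, while both YUCCA1 panels overlap.

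DAO, which removes IAA, gave a signal of 480, 883 and 686 in wild-type replicates 1, 2 and 3 and of 1551, 1168 and 1391 in dao replicates 1, 2 and 3. The groups did not overlap, but the brightest wild-type array and the dimmest dao array were only 1.32-fold apart, against 3.23-fold for the most distant pair. The spread within wild type was wide, with a coefficient of variation of 29.5% against 14.1% on the dao arrays. The log2 difference was 1.04 (SE 0.22, adjusted p = 0.0251). It stood close to the 2-fold limit, and 4 of the 6 arrays each held up the call. DAO no longer passed when wild-type replicate 1 was omitted (log2 0.81) or replicate 3 (1.06, adjusted p = 0.109), or when dao replicate 1 (0.94, adjusted p = 0.0910) or 3 was (1.02, adjusted p = 0.113). Where the probes lie in the transcript relative to the mutation is not known here, so the signal shows neither whether the labels are right nor how much enzyme is made.

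TAR2, the aminotransferase of the first step (also listed as TAA1 and FIB), gave 42.1, 146 and 105 in wild type and 442, 398 and 388 in dao. All dao arrays were above all wild-type arrays, by 2.65-fold for the closest pair and 10.5-fold for the most distant. The dao arrays lay close together, with a coefficient of variation of 7.09%, whereas the wild-type arrays spread over a 3.48-fold range (53.7%). Wild-type replicate 1 was the lowest of all. The log2 difference was 2.24 (SE 0.40, adjusted p = 0.0157), 1.72 without that array and 2.62 without wild-type replicate 2. TAR2 no longer passed when wild-type replicate 3 (log2 2.38, adjusted p = 0.0739), dao replicate 1 (2.18, adjusted p = 0.0612) or dao replicate 3 (2.28, adjusted p = 0.0782) was omitted.

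SAUR39, the repressor of auxin synthesis and transport, was dim but tightly grouped, at 8.49, 6.59 and 8.69 in wild type and 25.5, 24.97 and 26.5 on the dao arrays. The closest pair was 2.87-fold apart and the most distant 4.02-fold, and the coefficient of variation on the dao arrays was 3.07%. The log2 difference was 1.71 (SE 0.15, adjusted p = 0.00245). Leaving out any 1 array kept the call, at log2 1.58 to 1.78. When 32 was added to each signal before the log, a step that lowers the fold of a dim probe set, the log2 difference was 0.53 with an adjusted p of 0.00206, under the 2-fold limit.

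YUCCA1, the monooxygenase of the second step, was read by a pair of probe sets that differ in design. The set ending in _at gave 2.84, 3.71 and 3.67 in wild type and 3.28, 3.92 and 3.36 on the dao arrays. The set ending in _x_at, a suffix that marks probes able to match other sequences too, gave 10.3, 12.5 and 16.3 in wild type and 11.6, 12.2 and 10.2 on the dao arrays. In both sets the groups overlapped, and a dao array was above a wild-type array in 5 of 9 pairs for the first and 2 of 9 for the second. The _x_at set had a log2 difference of -0.18 (95% interval -0.61 to 0.25, adjusted p = 0.601). The _at set fell below the filter on low signal and was tested only in the fit without a filter, at log2 0.05 (95% interval -0.23 to 0.34, adjusted p = 0.872). These intervals leave out a 2-fold change of the measured signal either way, but they say nothing of a transcript that lies under the background.

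How far these dim signals stood above background was judged from the 64 reporter probe sets of the array, which are designed for marker and reporter genes used in transgenic plants. Their median signal ran from 3.57 to 3.73 over the 6 arrays. They are not a pure background, since 1 of the 8 that passed the filter was past the threshold and higher on the dao arrays, at 19.6, 4.87 and 8.33 in wild type and 54.7, 33.9 and 43.8 on the dao arrays, where it was the brightest reporter. The _at set of YUCCA1 lay among them, with 28 to 54 of the 64 reporters brighter on the same array. The _x_at set had 2 to 6 reporters above it. SAUR39 had 5 to 10 reporters above it in wild type and 1 to 2 on the dao arrays, so its wild-type level is near the top of this range and the fold is uncertain. DAO and TAR2 were brighter than all 64 reporters on every array.

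**Figure D2:**
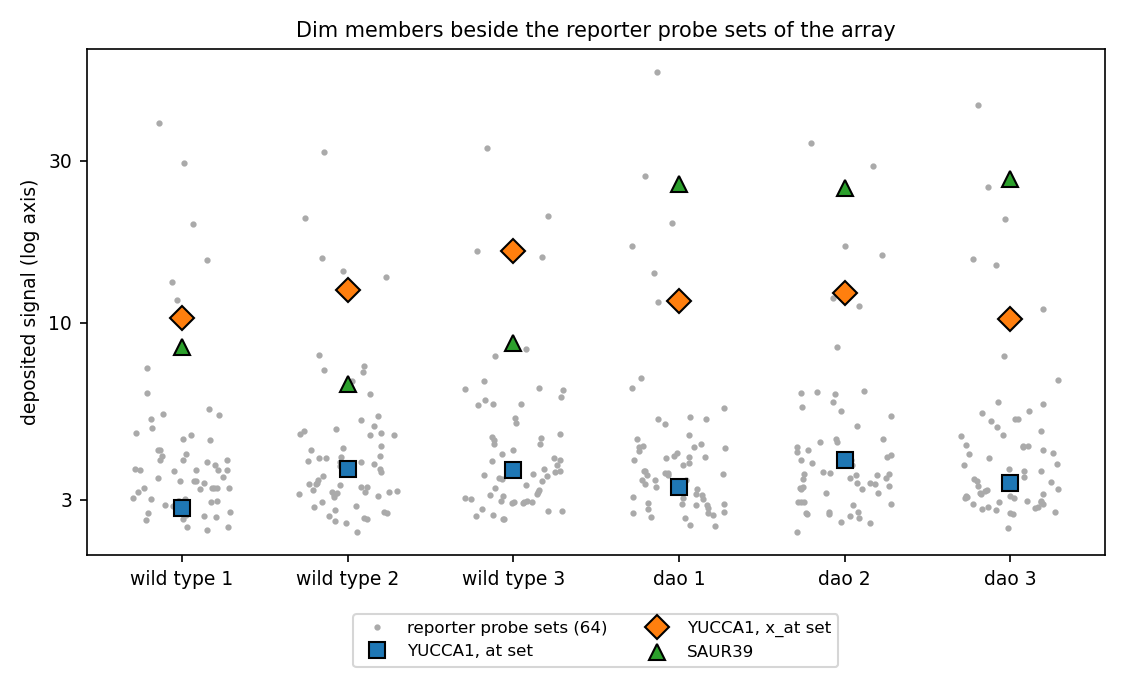
Signal (log axis) of the 64 reporter probe sets (grey, spread sideways at random) on each of the 6 arrays, with both YUCCA1 probe sets and SAUR39. The _at set of YUCCA1 lies within the reporters, while SAUR39 has 5 to 10 of them above it in wild type and 1 to 2 on the dao arrays.

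Of the 5 probe sets 4 passed the filter, and 3 of these 4 were past the threshold, all higher. The members were chosen with earlier results of these data known, so this count is a description and tests nothing. A probe set counts as past the threshold with an adjusted p of at most 0.05 and at least a 2-fold difference. Over all 34355 probe sets tested, 2.03% were past it and higher on the dao arrays, and 1.34% past it and lower. SAUR39 passed the filter at its wild-type level alone, since its wild-type mean of 7.92 ± 1.16 (SD, n = 3) is above the filter at 6.33. Every dao array was above every wild-type array in DAO, TAR2 and SAUR39, which was so for 17.9% of all probe sets tested. Ranked by signed log2 difference with the largest rise first, TAR2 stood at place 65, SAUR39 at 174 and DAO at 749 of the 34355.

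**Figure D3:**
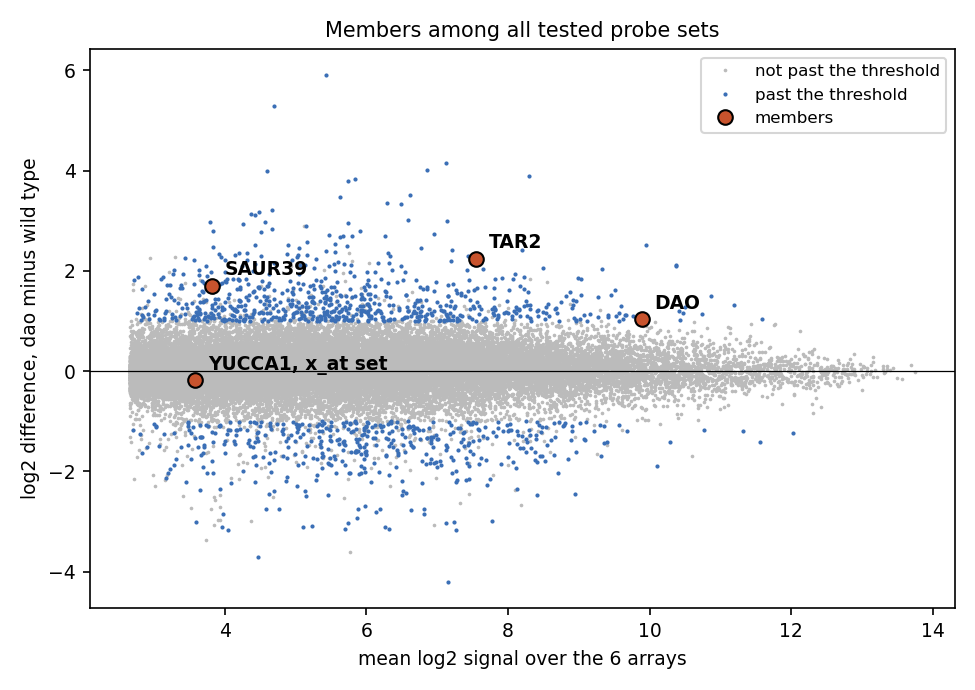
Log2 difference, dao minus wild type, against mean log2 signal for the 34355 tested probe sets (blue, past the threshold; grey, not), with the 4 tested probe sets of the members in orange. TAR2 (log2 2.24) and SAUR39 (1.71) lie among the larger rises, DAO (1.04) at the edge of the called probe sets, and YUCCA1 (-0.18) near 0.

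Whether the genes changed unequally was tested within arrays, on the log2 ratio of 2 probe sets, with a 2-sided exact permutation test over the arrays. With 3 arrays in each group this exact test cannot go below p = 0.10. The ratio of TAR2 to the _x_at set of YUCCA1 was higher on the dao arrays by log2 2.42 (SE 0.45, exact p = 0.10) and did not overlap between groups. That set is dim, its probes can match other sequences, and it stood at log2 -0.18. The ratio therefore mostly repeats the rise of TAR2 (log2 2.24) and does not compare the 2 steps of synthesis. Other ratios to YUCCA1 carry the same limit. The ratio of TAR2 to DAO was higher by log2 1.20 (SE 0.30, exact p = 0.10), also without overlap. It compares 2 transcripts and does not measure synthesis or removal of IAA. SAUR39 and DAO differed by log2 0.67 (SE 0.38, exact p = 0.20) and TAR2 and SAUR39 by 0.53 (SE 0.63, exact p = 0.60), and both of these ratios overlapped. After adjustment over the 9 pairs compared, 7 pairs without overlap stood at 0.129, so none passes. The floor of the exact test set this limit, and these p-values do not show that the genes changed alike.

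Other genes of IAA synthesis were sought by name, and those found were the subunits of anthranilate synthase, which opens the tryptophan pathway that supplies IAA synthesis. OASA1 and OASA2 encode its alpha subunits and ASB1 and ASB2 its beta subunits. Of the 6 tested genes of synthesis and tryptophan supply, TAR2 rose, 0 fell and 5 did not pass, with a median log2 difference of -0.01, against -0.01 over all probe sets tested. OASA1 gave 521, 371 and 406 in wild type and 497, 253 and 382 on the dao arrays (log2 -0.24, adjusted p = 0.593). ASB2 stood at log2 0.21 (adjusted p = 0.285), ASB1 at 0.01 and the dim OASA2 at -0.03. OASA1, OASA2 and ASB1 overlapped between the groups, while ASB2 was 152 to 179 in wild type and 189 to 194 on the dao arrays. TDC2, a tryptophan decarboxylase that draws on the same tryptophan, overlapped as well (log2 -0.37, adjusted p = 0.482).

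SAUR39 was the only SAUR gene found by name. Of 11 auxin transport genes found by name, 6 had a probe set and 3 passed the filter, of which 0 rose, 0 fell and 3 did not pass. PIN10A, an efflux carrier, gave 276, 241 and 217 in wild type and 246, 330 and 266 on the dao arrays (log2 0.19, adjusted p = 0.463). PIN5B, also listed as PIN5C and of the same family, stood at log2 0.43 (adjusted p = 0.146). The gene listed as BG1 was placed here by its symbol alone, which other genes can share, and its role in transport could not be checked. It was 5.90, 12.6 and 7.73 in wild type and 16.3, 15.0 and 16.8 on the dao arrays, without overlap (log2 0.94, adjusted p = 0.0580). PIN2, PIN5A and PIN9 were below the filter. No auxin receptor was found by name, and genes without a name could not enter these lists.

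**Figure D4:**
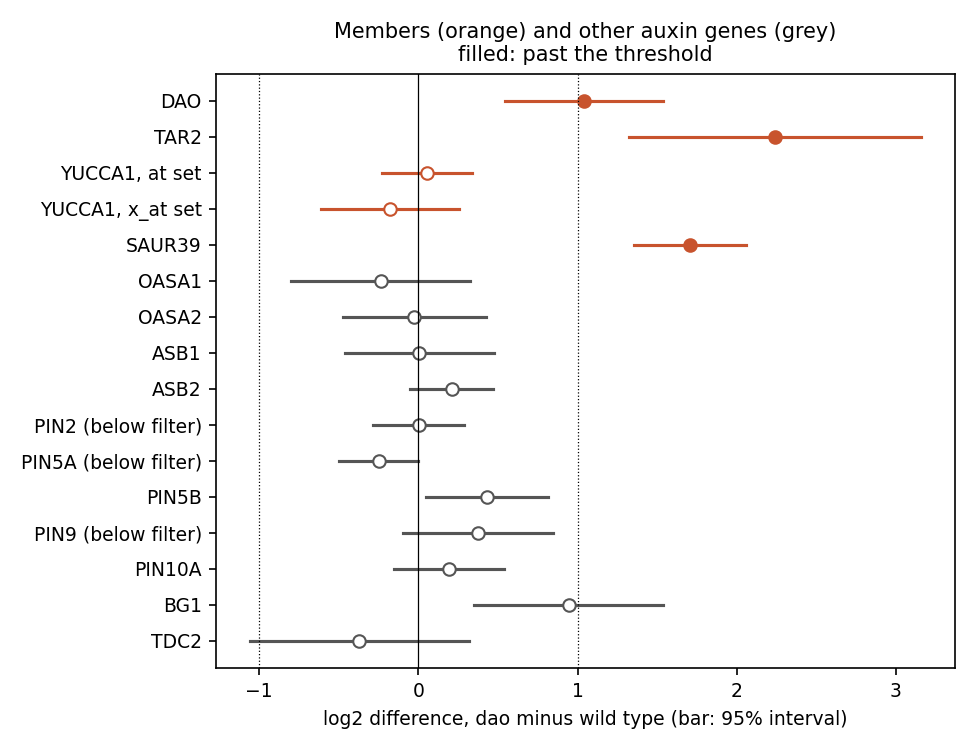
Log2 difference, dao minus wild type, with its 95% interval for the 5 probe sets of the members (orange) and for the brightest probe set of the other synthesis, transport and decarboxylase genes (grey); dotted lines mark a 2-fold difference and filled points are past the threshold. Only DAO, TAR2 and SAUR39 are filled, and the gene listed as BG1, whose role could not be checked, is the next highest (0.94).

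The genes whose signal followed each member most closely over the 6 arrays were found among 2181 genes with a name, by Pearson's r of log2 signal. These values describe the arrays and carry no test. The 6 arrays fall into 2 groups, so any difference between the groups enters each r. For DAO the closest were Rac1, a small GTPase (r = 0.999), IAA14, an Aux/IAA repressor of auxin-responsive transcription (0.998), and the gene listed as Melibiase (0.996). IAA14 was 129, 293 and 196 in wild type and 604, 389 and 500 on the dao arrays, so that array 1 was lowest in wild type and highest in dao, as for DAO. In all, 313 of the 2181 genes had an r above 0.9 with DAO.

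For TAR2 the closest were HSP17.3, a small heat shock gene (r = 1.00), R40C1 (0.998) and DI19-5 (0.995). R40C1 rose from 72.5, 172 and 136 to 464, 418 and 392 (log2 1.83, adjusted p = 0.0109), and its lowest wild-type array was replicate 1, as for TAR2. For SAUR39 they were GL2-2 (r = 0.998), PAP2 (0.998) and RR6, named as a response regulator (0.995). PAP2 rose by log2 1.00 (adjusted p = 0.00388), while GL2-2 stood at log2 0.34 (adjusted p = 0.111). An r above 0.9 was found for 279 of the 2181 genes with TAR2 and for 272 with SAUR39. For the _x_at set of YUCCA1 the highest r was 0.931, with H2B.11, and 1 gene was above 0.9.

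The libraries as a whole bear on these values in several ways. Replicate 3 of a group lay between the other 2 in 98.6% of the wild-type and 98.9% of the dao probe sets that these placed at least 2-fold apart, against 3.07% to 31.9% for the other arrays. Among the members only TAR2 in wild type met the 2-fold condition, with replicate 3 in the middle. Replicate 3 was also the middle array in both groups for DAO and for the _at set of YUCCA1. It was not the middle array for TAR2 on the dao arrays, or in either group for SAUR39 and the _x_at set of YUCCA1. For SAUR39 it was the highest of each group. Whether the arrays numbered 3 are independent of the others was not tested. If they are not, the SEs and p-values of the fit are too small. Without both arrays numbered 3, 0 of 34355 probe sets were called by limma, with 3493 at an unadjusted p under 0.05, and DAO (log2 1.05), TAR2 (2.42) and SAUR39 (1.76) kept their size. The hybridization spike-ins, control RNAs added in fixed amounts, had 27 probe sets, and in 27 of these each dao array lay under each wild-type array (median log2 -0.38). Several of these probe sets read the same control RNA (bioB, bioC, bioD or cre), so they are not 27 separate controls. Scaling to them moved the median of all probe sets to log2 0.32, DAO to 1.36 and the _x_at set of YUCCA1 to 0.14, which is a change of sign. The 3′ over 5′ signal ratio, a sign of RNA quality, was 3.36 to 3.90 for ubiquitin in wild type and 2.89 to 3.16 on the dao arrays, without overlap. That of actin was 38.2 ± 2.29 (SD, n = 3) and 55.3 ± 16.8 (SD, n = 3), with overlap, and that of cyclophilin overlapped as well.

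The tissue was checked with marker genes. Genes of mature pollen were bright on every array, led by the beta-expansin EXPB9 at 11242 to 13036, and 0 of the 6 tested passed. Their summed signal was 33583 to 35995 in wild type and 29786 to 31371 on the dao arrays, without overlap, with a median log2 difference of -0.15. All sums of marker genes use the deposited signal. Scaling to the spike-ins, which moved the median of all probe sets to log2 0.32, was not applied to them. The summed signal of 13 tapetum and anther wall genes was 1125 to 1210 in wild type and 1226 to 2017 on the dao arrays, without overlap, and 0 of the 10 tested passed. C6, a lipid transfer protein gene of the tapetum, was 87.6, 125 and 106 in wild type and 531, 149 and 438 on the dao arrays (log2 1.63, adjusted p = 0.0524). The closest sums, in replicate 2 of each group, lay less far apart (1210 and 1226) than C6 did on these arrays. The separation of the sums thus rested on C6. Of the 10 tested, RAFTIN1 (log2 -0.36), PSS1 (-0.23) and PTC1 (-0.09) were lower on the dao arrays and the others higher, with a median of 0.35. MADS3, a stamen identity gene, was 164 to 195 in wild type and 288 to 338 on the dao arrays (log2 0.78, adjusted p = 0.0103). Of the 13, C4, CYP703A3 and PTC1 were under 10 on every array. The ovule gene MADS13 rose from 6.18 ± 0.600 to 25.3 ± 4.53 (SD, n = 3), with the carpel gene DL at 11.7 to 16.7 over all arrays. MADS13 was 1 of 3 tested pistil and carpel genes to rise, against 2.03% of all probe sets tested. Its wild-type mean is under the filter at 6.33, so it was tested only through its dao signal, and its fold is uncertain. The summed signal of the 4 pistil and carpel genes with a probe set was 515 to 766 in wild type and 761 to 787 on the dao arrays, overlapping. Most of it came from MADS58, at 490 to 744 in wild type and 717 to 743 on the dao arrays (log2 0.26, adjusted p = 0.325). The overlap of the sum therefore says little of the other genes. MADS21, below the filter, was 3.02 to 3.30 in wild type and 3.84 to 5.73 on the dao arrays, without overlap. The summed signal of 4 green tissue genes was 1323 to 2733 in wild type and 1073 to 4194 on the dao arrays, overlapping, with 0 of 4 called. Among 5 meristem and leaf base genes the sum overlapped as well (133 to 143 in wild type, 101 to 141 on the dao arrays), with OSH1 and OSH71 under 10 on every array. The 3 that were tested did not overlap between groups and moved in opposite directions, though 0 passed the 2-fold limit. Over all probe sets tested, 17.9% had every dao array above every wild-type array, and the share the other way was not counted. PCNA, which serves DNA replication, was 36.4 to 38.3 in wild type and 50.9 to 59.1 on the dao arrays (log2 0.53, adjusted p = 0.0455). Both cyclin genes listed as CYCB1-1 were lower, at log2 -0.91 (31.4 to 34.6 against 13.7 to 20.3, adjusted p = 0.0236) and -0.72 (52.9 to 62.0 against 25.9 to 49.3, adjusted p = 0.101). The part of these tissue differences, of the 3′ over 5′ ratios and of the arrays numbered 3 in the rises of DAO, TAR2 and SAUR39 was not tested.

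**Figure D5:**
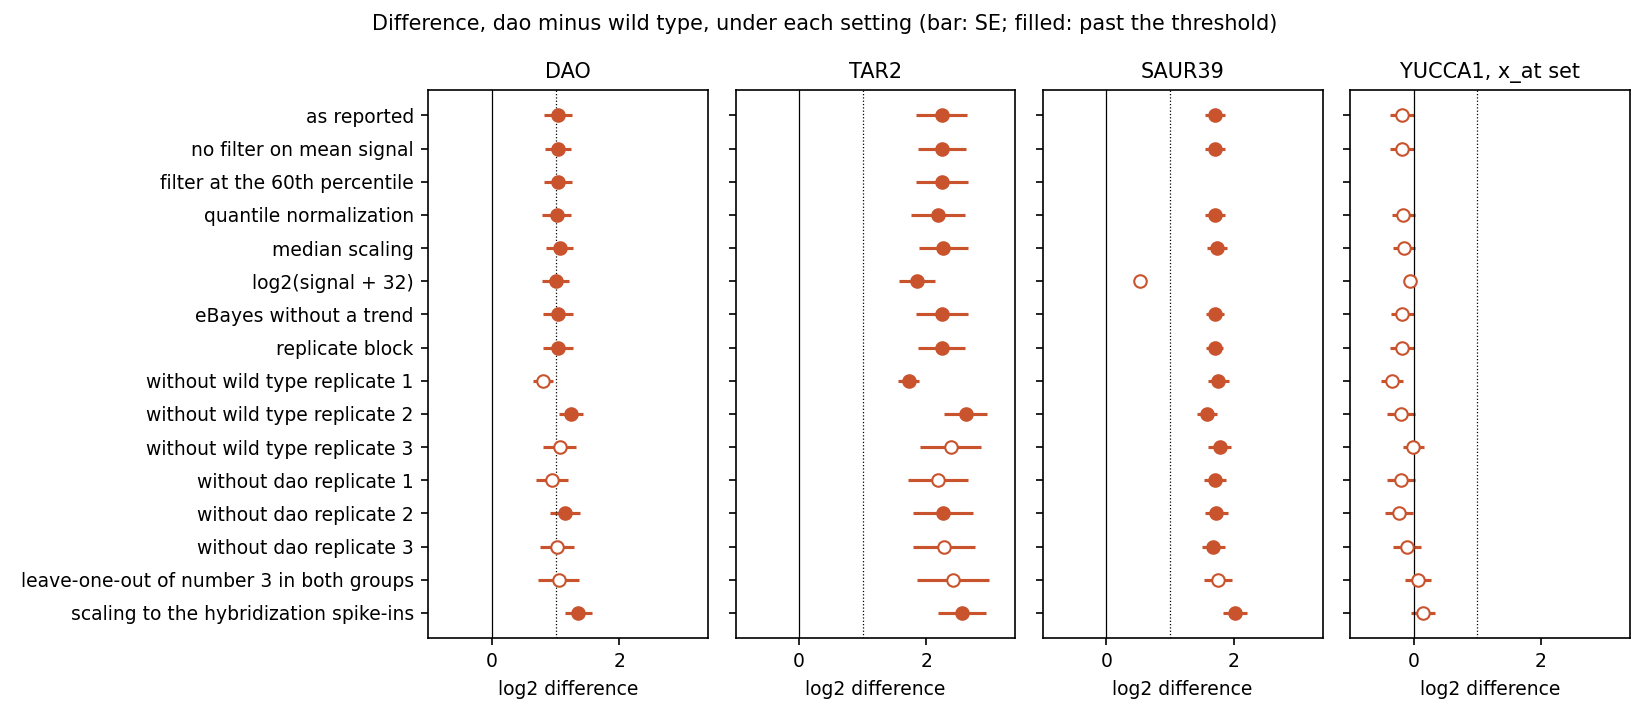
Log2 difference, dao minus wild type, with its SE for 4 probe sets under the reported settings and 15 others; filled points are past the threshold and a gap marks a probe set removed by the filter. The rises of DAO, TAR2 and SAUR39 stay above 0 in every setting shown, while DAO crosses the dotted 2-fold line, SAUR39 falls under it with log2(signal + 32) (0.53) and YUCCA1 crosses 0.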

How the data were processed

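The values are signal intensities on a linear scale, as deposited by the authors, with 1 for every probe set of an array. MAS5 is the tool named in the submitters' processing notes, with no version, and how background and scale were set was not stated. Median intensity was 8.82 to 9.33 on the 6 arrays, whose number limits the precision. The members and lists were chosen with earlier results of these data known. Of 57381 probe sets, 123 controls were left out, and probe sets below the 40th percentile of mean log2 signal (a signal of 6.33) were not tested. The test on log2 values was that of limma 3.58.1 (lmFit, then eBayes with a trend) under R 4.3.3, 2-sided, with group as the only term, and p-values were adjusted by Benjamini-Hochberg over 34355 probe sets. The code of the fit was run on simulated data with independent arrays and changes larger than that of DAO. That run does not test whether the real arrays are independent.

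Genes were named by Entrez ID from RefSeq. A listed gene was represented by its brightest probe set. Genes that shared a listed symbol but whose other names mark another gene were left out. The text names all synthesis, transport and decarboxylase genes that had a probe set and up to 3 most alike genes for each member. Alternatives were the filter, the scaling, the pseudocount, the trend, the replicate number as a block and the omission of arrays. Sequences and detection calls were not used.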

Additional observations from a re-analysis of the deposited data

How the results depend on the processing

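Besides the settings as reported, 15 others were tried for DAO and TAR2 and 14 for SAUR39, whose mean signal, like that of YUCCA1, lies under the filter at the 60th percentile. DAO kept its call in 10, TAR2 in 11 and SAUR39 in 12, and all 3 were higher on the dao arrays in each. Leaving out arrays moved DAO over log2 0.81 to 1.25, TAR2 over 1.72 to 2.62 and SAUR39 over 1.58 to 1.78. The calls lost on leaving out 1 array are given with each gene. Without both arrays numbered 3 all 3 genes lost theirs (adjusted p = 0.397, 0.334 and 0.239). That fit held fewer arrays, and what part this had in the loss was not tested. SAUR39 also lost its call with log2(signal + 32), at log2 0.53. Over all settings the adjusted p ran from 0.00673 to 0.397 for DAO, 0.00426 to 0.334 for TAR2 and 0.00162 to 0.239 for SAUR39. YUCCA1 was never past the threshold. Its _x_at set changed sign without both arrays numbered 3 (0.067) and on scaling to the spike-ins (0.14), a setting chosen after seeing the data, and ran from -0.33 to 0.067 when arrays were left out. Its _at set changed sign without wild-type replicate 1 (-0.073) and without dao replicate 2 (-0.027), and reached 0.14 at most when arrays were left out. On scaling to the spike-ins it stood at log2 0.38 with an adjusted p of 0.0395, under the 2-fold limit, and in the filtered fit the same scaling moved the median of all probe sets to 0.32. All settings of the _at set were fitted with no filter. The mean of the 2 sets gave -0.06. The number of probe sets past the threshold was 1157. It was 402 with log2(signal + 32) and 2296 on scaling to the spike-ins (2048 higher and 248 lower, against 698 and 459 as reported). When arrays were left out it was 0 to 1679. It was 278 without wild-type replicate 3, 298 without dao replicate 3 and 632 without dao replicate 1. Without wild-type replicate 1, wild-type replicate 2 or dao replicate 2 it was 1169, 1583 and 1679. The cause of these shifts was not tested. Arrays with the same replicate number had correlated deviations (r = 0.250, 0.181 and 0.087 over probe sets), but wild-type array 3 correlated best with dao array 2 (0.133), and the labels give no shared batch. With the replicate number as a block 1136 probe sets passed, and the calls for the 4 genes stayed the same.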
